A study of Mus musculus with 27 samples.

Results

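The 10 genes described here encode the 7 inhibitors of cyclin-dependent kinases (CDKs), Cdkn1a, Cdkn1b, Cdkn1c, Cdkn2a, Cdkn2b, Cdkn2c, and Cdkn2d, and the 3 pocket proteins, Rb1, Rbl1, and Rbl2. They were taken by symbol from a table of 54532 mouse genes, and all 10 passed the filter on low values that left 14932 genes for testing. Their mean levels over the 27 libraries ran from 3.91 FPKM (fragments for each kilobase of a gene's exons, corrected for library size) for Rbl1 to 164.9 FPKM for Cdkn1c, and each value of a member rested on 221 to 13973 fragments. Coordinates of genes are those of the table, on GRCm38.

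A cell commits to DNA replication when cyclin D with CDK4 or CDK6, and then cyclin E with CDK2, phosphorylate the pocket proteins, which until then hold E2F transcription factors and keep S-phase genes silent. The INK4 inhibitors (Cdkn2a to Cdkn2d) bind CDK4 and CDK6, and the CIP/KIP inhibitors (Cdkn1a to Cdkn1c) bind cyclin-CDK complexes more broadly. Cultured mouse embryonic fibroblasts (MEFs) are known for the growing activity of Cdkn2a, Cdkn2b, and Cdkn1a during culture, whereas neurons leave the cell cycle for good.

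The MEFs were of 3 genotypes (WT, Per1-/-, and Per2-/-, the last pair from mouse lines mutant for a period gene of the circadian clock). RNA was taken at days 0, 2, and 4 of their reprogramming to induced neurons (iNs), with 3 replicates in each of the 9 groups. All groups carried lentiviral neuronal transcription factors under a doxycycline-controlled promoter, which were added 3 days before day 0. The MEFs were from mid-gestation embryos without head and heart, were cultured from pools of 4 embryos, and were used at the first passage. On day 0 the medium with serum was replaced by a serum-free medium with insulin, transferrin, selenium, and basic FGF that also held the doxycycline, so every comparison over days joins the induced factors, the loss of serum, and the time in culture, which cannot be told apart.

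Between 15815013 and 24264097 fragments were counted on genes per library. Per1 was at 5.44 to 6.33 FPKM in WT and 3.23 to 4.96 FPKM in Per1-/- libraries on day 0, so the transcript was not lost. Per2 was at 0.817 to 0.957 FPKM in WT and 1.87 to 2.0 FPKM in the libraries labelled Per2-/- on day 0. It was also higher in these on days 2 and 4. By western blotting, the paper found PER1 protein lost in Per1-/- MEFs and PER2 protein lost in Per2-/- MEFs. Transcript levels do not measure the protein, so the libraries are named by their label here. The libraries were labelled as induced neurons, and the 10 neuron markers summed to 27.1 to 49.5 FPKM on day 0, 109 to 151 FPKM on day 2, and 110 to 205 FPKM on day 4, without overlap between day 0 and the later days. Of these 10, Rbfox3 alone stayed under 0.5 FPKM in every library. The 10 fibroblast markers summed to 3026 to 3823, 3179 to 4878, and 4298 to 5995 FPKM on the same days. The 12 macrophage markers summed to 112 to 874 FPKM on day 0, 130 to 1004 on day 2, and 334 to 1750 on day 4. By the thresholds given below, 8 of these 12 were called higher and 0 lower on day 2 than on day 0. Of the 10 fibroblast markers, 5 were called higher and 3 lower, and of the 9 neuron markers tested, 7 higher and 1 lower. Among all tested genes, 22.2% were called higher and 19.9% lower. The part of the neuron and macrophage markers in the changes between days was not tested. In these bulk samples, fewer cells of a type and less RNA per cell cannot be told apart.

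Cdkn2a, Cdkn2b, and Rbl1 are shown by their promoters, because the first pair are neighbours that moved together and Rbl1 held an E2F word of those searched. The windows are 300 bases long, end 50 bases after a transcript start, and come from RefSeq (GRCm38.p6), which gave windows for 8 of the 10 members. Capitals mark TTTCGCGC, which was searched with TTTGGCGC on both strands.
Rbl1, chr2:157204485-157204784, minus strand: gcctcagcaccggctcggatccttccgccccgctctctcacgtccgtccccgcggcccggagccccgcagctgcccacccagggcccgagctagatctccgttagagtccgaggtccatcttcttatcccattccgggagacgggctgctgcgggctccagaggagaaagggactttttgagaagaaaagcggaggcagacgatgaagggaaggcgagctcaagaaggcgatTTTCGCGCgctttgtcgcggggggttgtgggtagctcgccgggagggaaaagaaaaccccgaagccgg
Cdkn2a, chr4:89294570-89294869, minus strand, the start of the Arf transcript: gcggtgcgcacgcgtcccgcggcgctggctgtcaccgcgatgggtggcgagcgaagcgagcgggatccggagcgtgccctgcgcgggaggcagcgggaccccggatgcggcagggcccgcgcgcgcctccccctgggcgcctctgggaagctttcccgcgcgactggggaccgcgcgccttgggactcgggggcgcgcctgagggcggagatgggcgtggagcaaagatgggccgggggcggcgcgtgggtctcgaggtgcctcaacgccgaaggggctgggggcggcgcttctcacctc
Cdkn2a, chr4:89282143-89282442, minus strand, the start of the Ink4a transcript: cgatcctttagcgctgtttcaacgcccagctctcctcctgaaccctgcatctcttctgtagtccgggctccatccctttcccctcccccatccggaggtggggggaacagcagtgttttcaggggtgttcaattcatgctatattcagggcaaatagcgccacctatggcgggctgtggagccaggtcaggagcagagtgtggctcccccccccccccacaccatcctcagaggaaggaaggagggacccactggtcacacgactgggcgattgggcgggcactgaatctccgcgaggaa
Cdkn2b, chr4:89310983-89311282, minus strand: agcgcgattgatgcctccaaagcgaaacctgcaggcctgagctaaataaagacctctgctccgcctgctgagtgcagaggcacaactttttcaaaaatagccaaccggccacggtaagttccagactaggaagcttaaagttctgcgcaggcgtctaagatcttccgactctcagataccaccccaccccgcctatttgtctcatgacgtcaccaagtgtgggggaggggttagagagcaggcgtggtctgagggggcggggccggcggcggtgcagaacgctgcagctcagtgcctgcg

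Of the E2F words TTTCGCGC and TTTGGCGC, the first stood 18 bases before the start of Rbl1. Neither was in another window of the members, and 0.813% of the 32851 promoter windows of the mouse held either word. Other words for E2F were not searched, so the other windows may still hold E2F sites. The GC box GGGCGG, by contrast, was found in windows of all 8 members, and in 35.7% of all windows. The E-box CACGTG, the word bound by the circadian activators CLOCK and BMAL1, was found only in 1 of the 2 windows of Cdkn2c, on the 3′ side of the start, and in 7.15% of all windows. Cdkn2a (chr4:89274471-89294653) and Cdkn2b (chr4:89306299-89311039) lie 11.6 kb apart on the minus strand of chromosome 4. The 2 starts of Cdkn2a lie 12.4 kb apart, and the table gives 1 value per gene, so the CDK inhibitor p16Ink4a and the p53 activator p19Arf, both made from Cdkn2a, could not be separated.

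The family changed its composition between day 0 and day 2. Cdkn1c rose to become the most abundant inhibitor, Cdkn2c and the pocket protein gene Rbl2 rose with it, and Cdkn1a, Cdkn2a, and Cdkn2b fell. Groups were compared by limma on log2(FPKM + 0.1), with p-values adjusted by the Benjamini-Hochberg method over all tested genes, and a gene was called if its adjusted p did not exceed 0.05 and its log2 fold change reached 0.58 in either direction. Over the mean of the 3 genotypes, 6 of the 10 members were called, 3 higher and 3 lower, where 42% of all tested genes were called (22.2% higher and 19.9% lower). The members had a median log2 fold change of 0.26 and all tested genes one of -0.01. Levels of the 9 libraries of day 2 and the 9 of day 0 did not overlap for 5 members, Cdkn1c, Cdkn2c, Rbl2, Cdkn1a, and Cdkn2b, and for 41.2% of all tested genes. The plot of levels by day shows all 10 members in the 27 libraries.

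**Figure D1:**
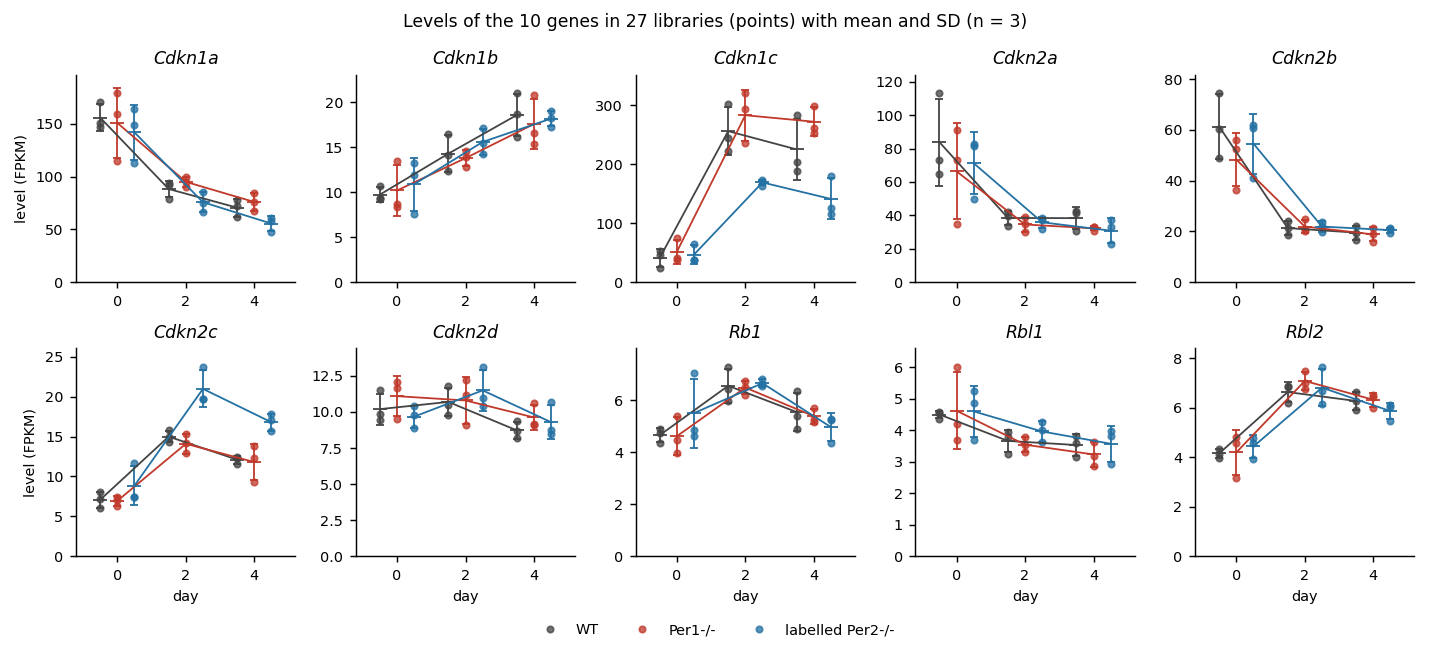
Level of each member (FPKM, linear axis from 0) on days 0, 2, and 4; points are single libraries, bars are the mean and SD of 3 replicates, lines join the means, and colours give WT (grey), Per1-/- (red), and the libraries labelled Per2-/- (blue). Cdkn1c lies at 23.8 to 75.4 FPKM on day 0 and 163 to 320 FPKM on day 2, while the day 2 values of Cdkn1a and Cdkn2b lie below all of their day 0 values.

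Cdkn1c (ENSMUSG00000037664, chr7:143458339-143461050) encodes p57, an imprinted inhibitor that is expressed from the maternal allele and is best known in embryonic tissues that leave the cell cycle. On day 0 it was at 53.1, 23.8, and 45.7 FPKM in WT, 40.1, 75.4, and 38.3 FPKM in Per1-/-, and 37.1, 65.0, and 37.8 FPKM in the libraries labelled Per2-/-. On day 2 it was at 223, 245, and 302 FPKM in WT, 294, 236, and 320 FPKM in Per1-/-, and 163, 170, and 173 FPKM in the libraries labelled Per2-/-. The days did not overlap, and the lowest library of day 2 was above the highest of day 0. It rose by 2.38 on the log2 scale (standard error 0.163, adjusted p = 2.43e-11, limma), a 5.21-fold rise, and its size exceeded that of 95.4% of all tested genes. Within genotypes the rise was 2.71 in WT, 2.52 in Per1-/-, and 1.90 in those labelled Per2-/-. On day 4 Cdkn1c was at 188, 203, and 284 FPKM in WT, 262, 253, and 299 FPKM in Per1-/-, and 116, 180, and 125 FPKM in the libraries labelled Per2-/-. Days 2 and 4 overlapped, with a log2 fold change of -0.18 between them (95% interval -0.52 to 0.16). Of the exon bases of Cdkn1c, 30.65% are shared with the antisense gene Gm44732. The libraries were not directional, so reads from this stretch could not be assigned to a strand. Kcnq1ot1, the paternally expressed non-coding RNA of the same imprinted domain, was at 0.0587 to 0.356 FPKM in all libraries and was below the filter.

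Cdkn1a (ENSMUSG00000023067, chr17:29090976-29100727) encodes p21, the inhibitor induced by p53. It was the most abundant member on day 0, at 147, 171, and 151 FPKM in WT, 159, 115, and 179 FPKM in Per1-/-, and 164, 149, and 113 FPKM in the libraries labelled Per2-/-. On day 2 it was at 93.7, 79.2, and 92.2 FPKM in WT, 100, 90.5, and 94.7 FPKM in Per1-/-, and 85.8, 74.7, and 66.9 FPKM in the libraries labelled Per2-/-. All 9 libraries of day 2 lay below all 9 of day 0. Between these days its log2 fold change was -0.79 (standard error 0.089, adjusted p = 6.67e-08, limma), a 1.73-fold decrease. On day 4 it was at 78.0, 61.3, and 72.6 FPKM in WT, 84.5, 67.4, and 76.1 FPKM in Per1-/-, and 58.4, 60.6, and 47.6 FPKM in the libraries labelled Per2-/-. The further log2 fold change from day 2 to day 4 was -0.37 (standard error 0.089, adjusted p = 0.00385, limma), which passed the p threshold but not the fold threshold.

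Cdkn1b (ENSMUSG00000003031, chr6:134920401-134925513) encodes p27, which accumulates in quiescent cells and is controlled largely through its protein. It went up in smaller steps, from 7.56 to 13.5 FPKM (median 9.32) on day 0 to 12.4 to 17.1 FPKM (median 14.3) on day 2 and 15.4 to 21 FPKM (median 18.3) on day 4. Days 0 and 2 overlapped, and days 0 and 4 did not. Against day 0 the log2 fold change was 0.52 on day 2 (adjusted p = 0.000121, limma), short of the fold threshold, and 0.84 on day 4 (standard error 0.105, adjusted p = 2.65e-07, limma), when Cdkn1b was called. Of the 10 members, Cdkn1b alone had a higher fitted level on day 4 than on day 2, in each of the 3 genotypes (log2 fold change 0.22 to 0.38).

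The INK4 genes went in different directions. Cdkn2b (ENSMUSG00000073802) encodes p15, an inhibitor induced by TGF-beta. It was at 36.3 to 74.4 FPKM (median 56.1) on day 0, 18.4 to 24.8 FPKM (median 21.4) on day 2, and 15.9 to 22.3 FPKM (median 19.5) on day 4. No library of day 2 or 4 reached the lowest of day 0. By day 2 Cdkn2b had a log2 fold change of -1.31 (standard error 0.105, adjusted p = 3.31e-10, limma), a 2.47-fold decrease.

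Its neighbour Cdkn2a (ENSMUSG00000044303) was at 34.7 to 113 FPKM (median 73.4) on day 0, 29.8 to 42.1 FPKM (median 37.3) on day 2, and 22.6 to 42.6 FPKM (median 32.9) on day 4. The days overlapped, because Per1-/- replicate 2 was at 34.7 FPKM on day 0. By day 2 Cdkn2a had a log2 fold change of -0.96 (standard error 0.160, adjusted p = 1.49e-05, limma), a 1.94-fold decrease. The ratio of Cdkn2a to Cdkn2b was 0.956 to 1.73 on day 0 (median 1.32), 1.2 to 1.9 on day 2 (median 1.74), and 1.08 to 2.18 on day 4 (median 1.84), ranges that overlapped. Mtap, a methionine salvage gene that ends 93.4 kb from Cdkn2a on the same chromosome, went from 55.6 ± 7.37 FPKM (SD, n = 9) on day 0 to 21.7 ± 2.43 FPKM on day 2, a log2 fold change of -1.35 (adjusted p = 3.82e-12, limma).

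Cdkn2c (ENSMUSG00000028551, chr4:109660876-109667189) encodes p18 and lies 20.4 Mb from Cdkn2b. On day 0 it was at 7.2, 8.03, and 5.98 FPKM in WT, 7.45, 7.05, and 6.28 FPKM in Per1-/-, and 7.4, 7.43, and 11.7 FPKM in the libraries labelled Per2-/-. On day 2 it was at 14.3, 15.0, and 15.8 FPKM in WT, 14.2, 15.3, and 12.9 FPKM in Per1-/-, and 19.7, 23.7, and 19.7 FPKM in the libraries labelled Per2-/-. Every library of day 2 lay above every library of day 0. It rose by 1.13 on the log2 scale (standard error 0.088, adjusted p = 2.28e-10, limma), a 2.18-fold rise. On day 4 it was at 12.5, 12.3, and 11.5 FPKM in WT, 13.8, 12.3, and 9.35 FPKM in Per1-/-, and 15.7, 17.8, and 17.1 FPKM in the libraries labelled Per2-/-. The level had thus moved back by a log2 fold change of -0.30 from day 2 (adjusted p = 0.0145, limma, under the fold threshold), and it was still called higher than on day 0 (0.83, adjusted p = 2.5e-08, limma). Cdkn2d (ENSMUSG00000096472, chr9:21288410-21291407), which encodes p19Ink4d, was the steadiest member, at 8.16 to 13.1 FPKM in all 27 libraries. From day 0 to day 2 it differed by a log2 fold change of 0.09 (95% interval -0.06 to 0.24, adjusted p = 0.26, limma).

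The pocket protein genes were the least abundant members. Rbl2 (ENSMUSG00000031666) encodes p130, the pocket protein of resting cells and a part of the DREAM complex that silences cell cycle genes. It was at 3.16 to 4.83 FPKM (median 4.32) on day 0, 6.14 to 7.63 FPKM (median 6.83) on day 2, and 5.47 to 6.64 FPKM (median 6.1) on day 4. No library of day 2 or 4 overlapped with day 0. Rbl2 rose by 0.68 on the log2 scale to day 2 (standard error 0.068, adjusted p = 1.15e-08, limma), a 1.6-fold rise, and its log2 fold change on day 4 against day 0 was 0.53 (adjusted p = 4.32e-07, limma), under the fold threshold. Rbl1 (ENSMUSG00000027641, chr2:157145893-157204534) encodes p107, the pocket protein of cycling cells and itself a known E2F target. It was at 3.68 to 6 FPKM (median 4.56) on day 0, 3.26 to 4.27 FPKM (median 3.8) on day 2, and 2.86 to 3.97 FPKM (median 3.59) on day 4. On day 2 Rbl1 had a log2 fold change of -0.28 (standard error 0.091, adjusted p = 0.00847, limma), and the ranges overlapped. The ratio of Rbl2 to Rbl1 was 0.527 to 1.31 on day 0 (median 0.938), 1.53 to 2.26 on day 2 (median 1.8), and 1.44 to 2.24 on day 4 (median 1.65). Rbl2 was thus above Rbl1 in all libraries of days 2 and 4, whereas on day 0 neither was the higher in all libraries.

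Rb1 (ENSMUSG00000022105, chr14:73183673-73325822) encodes the retinoblastoma protein itself. It was at 3.97 to 7.03 FPKM (median 4.74) on day 0, 5.96 to 7.26 FPKM (median 6.53) on day 2, and 4.34 to 6.35 FPKM (median 5.28) on day 4. Rb1 had a log2 fold change of 0.42 on day 2 (adjusted p = 5.1e-05, limma) and 0.11 on day 4 against day 0 (adjusted p = 0.19, limma), so the step of day 2 was mostly gone by day 4. Of the exon bases, 20.97% in Rbl2 are shared with genes on the other strand (Aktip and Gm45464) and 14.9% in Rb1 (Lpar6 and Rcbtb2). In Cdkn1a, 7.68% are shared with AC167363.2, also on the other strand. Reads from these stretches could not be assigned either.

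Among the inhibitors, the transcript pool passed from Cdkn1a to Cdkn1c. Cdkn1c held 5.82% to 26.1% of the summed FPKM of the 7 inhibitors on day 0 (median 13.5%), 45.4% to 62.5% on day 2 (median 55.8%), and 42.8% to 64.5% on day 4 (median 55.2%). Cdkn1a held 38.5% to 46.5% on day 0, 18.5% to 23.9% on day 2, and 16.4% to 21.5% on day 4. The ratio of Cdkn1c to Cdkn1a was 0.139 to 0.657 on day 0, 1.9 to 3.37 on day 2, and 1.99 to 3.93 on day 4, so that the days on either side of the switch did not overlap in any library. The summed level of the 7 inhibitors was 276 to 410 FPKM on day 0, 341 to 511 FPKM on day 2, and 261 to 464 FPKM on day 4, ranges that overlapped. These shares do not depend on how libraries are scaled.

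**Figure D2:**
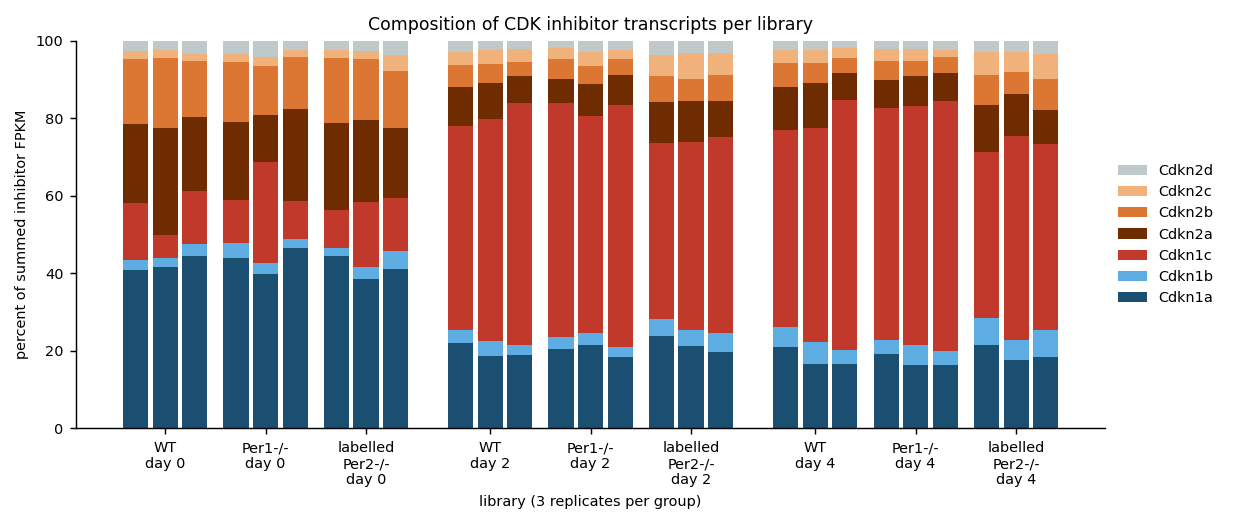
Share of each inhibitor in the summed FPKM of the 7 inhibitors (percent, stacked bars from 0 to 100), for each of the 27 libraries, grouped by genotype and day. The share of Cdkn1c is at most 26.1% on day 0 and at least 42.8% on days 2 and 4, and the shares of Cdkn1a and Cdkn2b are smaller on days 2 and 4. The share of Cdkn2a has a smaller median on these days, but its lowest value on day 0 (12%) and its highest on day 4 (12.1%) overlap.

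By level, the order on day 0 was Cdkn1a, Cdkn2a, Cdkn2b, and Cdkn1c, of which the last 3 overlapped in range, followed by Cdkn2d, Cdkn1b, Cdkn2c, Rb1, Rbl1, and Rbl2, each of which overlapped with the next. On day 2 it was Cdkn1c, Cdkn1a, and Cdkn2a, each above the next in all libraries, and then Cdkn2b, Cdkn2c, and Cdkn1b, which overlapped with their neighbours. The order on day 4 began with the same 3 genes without overlap. On both days 2 and 4, Rbl1 was the lowest member and did not overlap with Rb1, and Rbl2 and Rb1 overlapped.

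Within single genotypes, the same 6 members were called on day 2 against day 0 in WT, in Per1-/-, and among those labelled Per2-/-, 3 higher and 3 lower in each, where 40.5%, 39.6%, and 35.5% of all tested genes were called. In Per1-/- the call of Cdkn2a (log2 fold change -0.84, adjusted p = 0.0133, limma) was lost without day 0 replicate 1 (-0.71, adjusted p = 0.0561), without day 0 replicate 3 (-0.55, adjusted p = 0.103), and without day 2 replicate 1 (-0.73, adjusted p = 0.0552). The call of Cdkn1a in Per1-/- (-0.64) was lost without day 0 replicate 3 (-0.51), and that of Rbl2 (0.76) without day 0 replicate 2 (0.58). In the libraries labelled Per2-/- the call of Rbl2 (0.61) was lost without day 0 replicate 3 or day 2 replicate 2 (both 0.52).

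**Figure D3:**
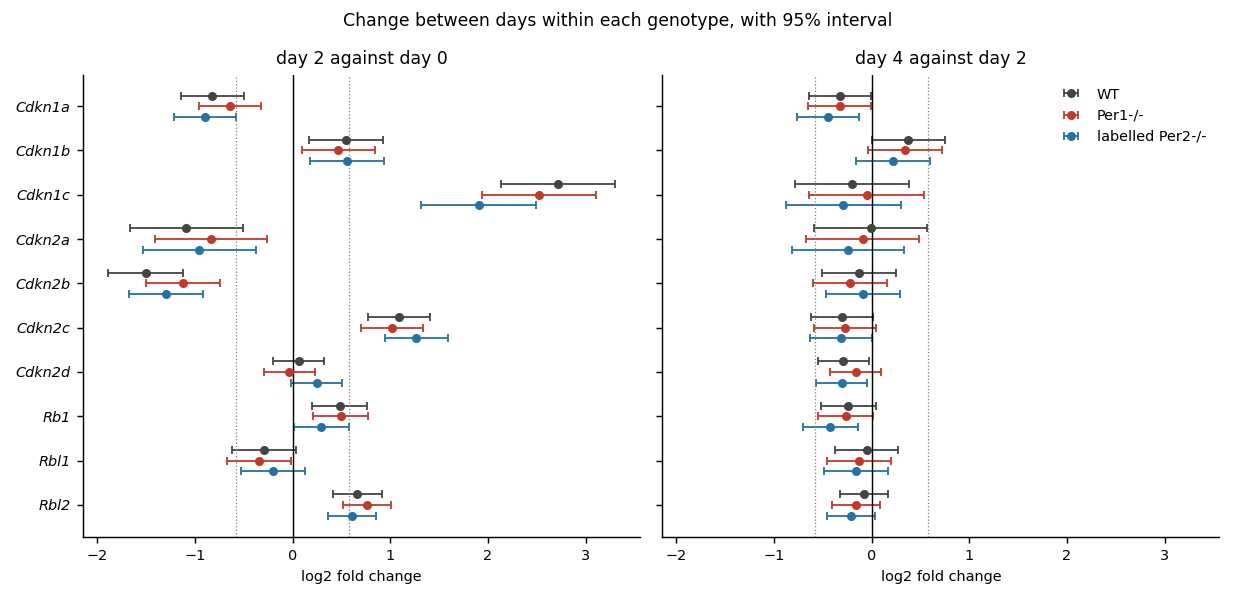
Log2 fold change of each member (horizontal axis) from day 0 to day 2 (left) and from day 2 to day 4 (right) in WT (grey), Per1-/- (red), and the libraries labelled Per2-/- (blue); bars are 95% intervals and dotted lines mark 0.58 in size. In the left panel Cdkn1c lies at 1.90 to 2.71, and in the right panel all members lie between -0.45 and 0.38.

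Between days 2 and 4, 0 of the 10 members were called with voom weights, and 0 by limma, which called 9.97% of all tested genes. At an unadjusted p under 0.05 there were 6 of the 10 members and 40.4% of all tested genes. Over all 9 libraries a day, levels of these days overlapped for every member, and did not for 5.14% of all tested genes. Within genotypes, levels on day 4 did not overlap with day 2 for 3 members in WT (Cdkn1a, Cdkn2c, and Cdkn2d, all lower), 4 in Per1-/- (Cdkn1b higher and Cdkn1a, Rb1, and Rbl2 lower), and 5 in those labelled Per2-/- (Cdkn1b higher and Cdkn1a, Cdkn2c, Rb1, and Rbl2 lower), beside 32.1%, 29.7%, and 28.8% of all tested genes. Within WT, Per1-/-, and the libraries labelled Per2-/- the count was also 0 with voom weights, and 0 by limma, which called 3.21%, 2.44%, and 4.06% of all tested genes. With voom weights, 521 of all tested genes were called in Per1-/- in place of 364. With a block for genotype and replicate number, 829, 730, and 1051 of all tested genes were called in place of 479, 364, and 606, and still 0 members. At an unadjusted p under 0.05 without the block there were 2, 1, and 3 members, beside 19.9%, 20%, and 22.6% of all tested genes. Without a minimum fold change 5 members passed over the mean of genotypes, Cdkn1a (-0.37), Rb1 (-0.31), Cdkn2c (-0.30), and Cdkn2d (-0.25) lower and Cdkn1b (0.31) higher. The 40.4% of all tested genes given above is for the looser unadjusted threshold, which 6 members passed. The share at the adjusted threshold is not given here, so the count of 5 was not read as a trait of the members. On day 4 against day 0, 6 members were called, Cdkn1b, Cdkn1c, and Cdkn2c higher and Cdkn1a, Cdkn2a, and Cdkn2b lower, where 45.6% of all tested genes were called (24.4% higher and 21.2% lower). Levels of these days did not overlap for Cdkn1b, Cdkn1c, Rbl2, Cdkn1a, and Cdkn2b, and for 42.6% of all tested genes. Within genotypes, 7 members were called in WT, 7 in Per1-/-, and 6 in those labelled Per2-/-, where 43.8%, 43%, and 40.3% of all tested genes were called. The additional gene in WT and Per1-/- was Rbl2, with log2 fold changes of 0.58 and 0.60, close to the threshold.

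The direction of some of these changes depended on how libraries were scaled. The summed FPKM of all genes was 333295 to 374624 on day 0 and 261289 to 289211 on day 2. When each library was rescaled to the same sum, the median change of all tested genes on day 2 moved to 0.36 on the log2 scale, and the calls went from 3308 higher and 2967 lower to 5610 higher and 1361 lower. Calls on day 4 went from 3644 higher and 3161 lower to 5203 and 1816 against day 0, and from 976 and 512 to 820 and 660 against day 2. On that scale Cdkn1c (2.77), Cdkn2c (1.51), Rbl2 (1.06), Cdkn1b (0.91), and Rb1 (0.80) were called higher and Cdkn2b (-0.92) lower, and Cdkn1a (-0.40) and Cdkn2a (-0.57) were no longer called. Relative to the median of all genes, the log2 fold changes were -0.76 for Cdkn1a, -0.94 for Cdkn2a, -1.28 for Cdkn2b, 2.40 for Cdkn1c, and 0.69 for Rbl2, close to those of the deposited scale. Rbl1 turned from -0.28 to 0.10 on the rescaled values and was at -0.26 relative to the median.

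No member was called between genotypes on any day by limma, and none with voom weights. With voom weights, 266 of all tested genes were called between Per1-/- and the libraries labelled Per2-/- on day 4, in place of 83 by limma. Against WT, limma called 0.0134%, 0.0067%, and 0.0268% of all tested genes in Per1-/- on days 0, 2, and 4, and 0.0067%, 0.0268%, and 0.0067% in the libraries labelled Per2-/-. Between Per1-/- and the libraries labelled Per2-/- these shares were 0.0201%, 0.0737%, and 0.556%. At an unadjusted p under 0.05, 2 members passed between the libraries labelled Per2-/- and WT on day 2 and 3 on day 4, 3 passed between Per1-/- and the libraries labelled Per2-/- on each of these days, and 0 passed in the other comparisons, among them all with WT and Per1-/-. They were Cdkn1c and Cdkn2c in the first of these comparisons and Cdkn1c, Cdkn2c, and Cdkn1a in the other 3. Over all tested genes, 2.87% and 3.42% passed this threshold between the libraries labelled Per2-/- and WT on days 2 and 4, and 8.22% and 13.2% between Per1-/- and those labelled Per2-/-.

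Cdkn1c was lower in the libraries labelled Per2-/- than in all WT and all Per1-/- libraries on days 2 and 4, as the values given above show. Against WT the log2 fold change was -0.59 on day 2 (95% interval -1.18 to -0.01) and -0.68 on day 4 (-1.27 to -0.10), with an adjusted p of 1 in limma on both days. Between Per1-/- and the libraries labelled Per2-/- it was 0.74 on day 2 and 0.97 on day 4 (standard error 0.282, adjusted p = 0.118, limma). On day 0 the groups overlapped, and the rise from day 0 to day 4 was smaller by 0.90 in the libraries labelled Per2-/- than in WT (unadjusted p = 0.0347, adjusted p = 1, limma), a difference that was not called. Between Per1-/- and WT, Cdkn1c differed by 0.14 on day 2 (95% interval -0.44 to 0.73).

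Cdkn2c went the other way and was higher in all libraries labelled Per2-/- than in all others on days 2 and 4. Compared with WT the log2 fold change was 0.48 on day 2 (95% interval 0.16 to 0.80) and 0.47 on day 4 (0.15 to 0.79), with an adjusted p of 1 in limma. Between Per1-/- and the libraries labelled Per2-/- it was -0.57 on day 2 (adjusted p = 0.189, limma) and -0.52 on day 4 (adjusted p = 0.119, limma). Cdkn1a was lower in the libraries labelled Per2-/- than in Per1-/- without overlap on days 2 and 4, by a log2 fold change of 0.33 and 0.46 (adjusted p = 0.578 and 0.185, limma). Against WT, Cdkn1a was also lower in these libraries without overlap on day 4 (47.6 to 60.6 and 61.3 to 78 FPKM), and it overlapped on day 2. No member was without overlap on day 0, nor between Per1-/- and WT on any day, when groups did not overlap for 5.11%, 10.3%, and 14.6% of all tested genes in Per1-/- against WT on days 0, 2, and 4, for 7.6% between the libraries labelled Per2-/- and WT on day 0, and for 6.94% between both mutants on day 0. On the later days, groups did not overlap for 9.98% of all tested genes between the libraries labelled Per2-/- and WT on day 2 and 10.2% on day 4, and for 16.1% and 19.2% between Per1-/- and the libraries labelled Per2-/-. The comparisons share libraries, so they are not separate evidence.

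**Figure D4:**
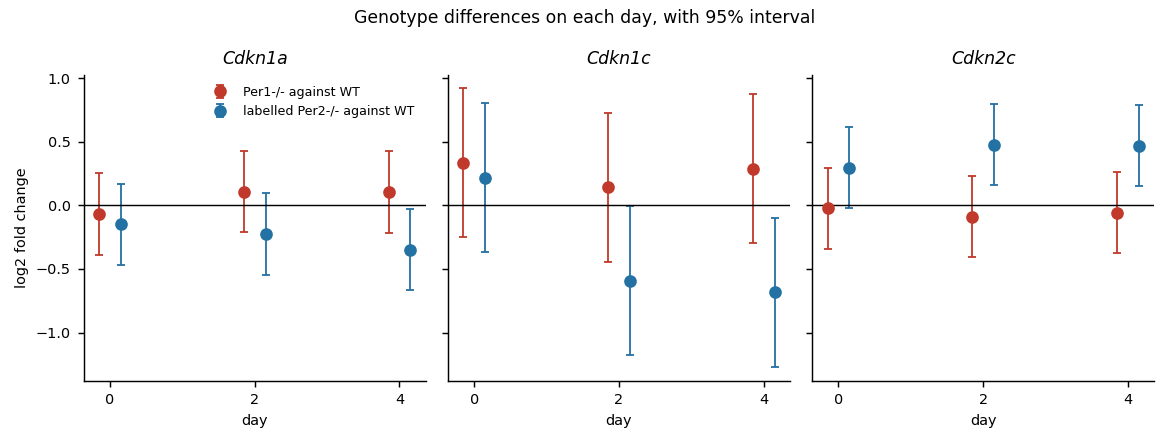
Log2 fold change against WT (vertical axis) of Cdkn1a, Cdkn1c, and Cdkn2c on days 0, 2, and 4 for Per1-/- (red) and the libraries labelled Per2-/- (blue), with 95% intervals. On days 2 and 4 the blue intervals lie below 0 for Cdkn1c and above 0 for Cdkn2c, and no difference was called after adjustment.

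Levels of macrophage markers also varied between the genotypes, and not only in the libraries labelled Per2-/-. On day 2, 12 of 12 had a higher mean in Per1-/- than in WT, with 0 called. The macrophage markers summed to 130 to 298 FPKM in the libraries labelled Per2-/- on day 2, 229 to 390 FPKM in WT, and 435 to 1004 FPKM in Per1-/-, and 12 of 12 had a lower mean in the libraries labelled Per2-/- than in WT, with 0 called. On day 4 these sums were 334 to 650, 431 to 851, and 906 to 1750 FPKM. None of the 12 was at 0 in any library. The fibroblast markers summed to 3562 to 3743 FPKM in the libraries labelled Per2-/- on day 2, within the 3179 to 4878 FPKM of WT. The part of these values in the differences of Cdkn1c, Cdkn2c, and Cdkn1a was not tested.

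The members varied on day 0, before the induction of the factors. Per1-/- replicate 2 had the lowest Cdkn2a (34.7 FPKM), Cdkn2b (36.3 FPKM), and Rbl2 (3.16 FPKM) of the 9 libraries and the highest Cdkn1c (75.4 FPKM) and Rbl1 (6.0 FPKM). WT replicate 2 stood at the other end, with the highest Cdkn2a (113 FPKM) and Cdkn2b (74.4 FPKM) and the lowest Cdkn1c (23.8 FPKM). The ratio of Cdkn1c to Cdkn2a was 0.21 to 2.18 on day 0, 4.26 to 9.85 on day 2, and 3.54 to 9.21 on day 4. The macrophage markers summed to 294 FPKM in Per1-/- replicate 2 and 181 FPKM in WT replicate 2. Without 1 library at a time, the log2 fold change of Cdkn1c on day 2 was 2.26 to 2.48 over the mean of genotypes and that of Cdkn2a -1.10 to -0.86.

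The other genes of the pathway were taken from 6 lists written by hand. Of 13 G1 cyclins and kinases, 0 were called higher and 4 lower on day 2 against day 0, with a median log2 fold change of -0.34, where 22.2% of all tested genes were called higher and 19.9% lower. On the values rescaled to a common sum the G1 list had 0 called and a median of 0.05, against 0.36 for all genes. Ccnd1, the cyclin D of growing fibroblasts, went from 96 ± 25.9 FPKM (SD, n = 9) on day 0 to 51.4 ± 7.7 on day 2 (log2 fold change -0.87, adjusted p = 2.79e-06, limma). Ccne1, the cyclin E that starts S phase, went from 18.7 ± 4.3 to 10.2 ± 1.36 FPKM (-0.85, adjusted p = 1.21e-06, limma) and was at 6.53 ± 0.556 FPKM on day 4.

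Of the 20 E2F target genes, which make DNA precursors and replication proteins, 4 were called lower on day 2 and 14 on day 4 against day 0, and 0 were called higher. The 4 of 20 stood near the 19.9% of all tested genes called lower on day 2, and the 14 of 20 stood beside 21.2% on day 4. The median log2 fold change was -0.40 on day 2 and -0.71 on day 4, beside -0.01 for all tested genes on both days. Rrm2, the ribonucleotide reductase subunit of S phase, went from 55.5 ± 16.3 FPKM (SD, n = 9) on day 0 to 26.6 ± 5.47 on day 2 and 12.5 ± 2.12 on day 4. Cdt1, which licenses replication origins, had a log2 fold change of -0.64 on day 2 (adjusted p = 0.000609, limma). With libraries rescaled to a common sum, 1 of the 20 was called lower on day 2 and 8 on day 4, and the medians relative to all genes were -0.38 and -0.70.

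Among the 10 E2F and DP factors, of which E2f6, E2f7, and E2f8 do not bind pocket proteins, 2 were called higher and 3 lower on day 2, beside 22.2% and 19.9% of all tested genes. Tfdp2, a dimerization partner of E2Fs, went from 2.42 ± 0.138 FPKM (SD, n = 9) to 10.2 ± 1.51 FPKM (log2 fold change 2.03, adjusted p = 1.62e-14, limma), and E2f2, an activator, from 0.788 ± 0.281 to 1.72 ± 0.333 FPKM. The repressors E2f6 and E2f8 fell, with log2 fold changes of -1.12 and -0.73. Of the 9 genes listed for the DREAM complex, its MuvB core, and factors that bind or regulate it, 1 was called on day 2, Mybl1, a MYB factor and no partner of Rbl2 (-0.67, adjusted p = 1.86e-06, limma), and 5 were called lower on day 4 against day 0. Among all tested genes, 19.9% were called lower on day 2 and 21.2% on day 4. Rescaled, the E2F and DP list had 2 called higher and 1 lower on day 2 and the DREAM list 1 and 0, with medians of -0.11 and -0.03. All tested genes had 5610 called higher and 1361 lower on these values, with a median of 0.36.

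Of the 20 p53 target genes besides Cdkn1a, 3 were called higher and 7 lower on day 2, and 3 and 11 on day 4 against day 0, where 22.2% and 19.9% of all tested genes were called on day 2 and 24.4% and 21.2% on day 4. Perp and Pmaip1, both linked to cell death, fell on day 2 with log2 fold changes of -2.46 and -2.16, from 24 ± 14 and 60.7 ± 26.9 FPKM (SD, n = 9). Sesn1, a stress response gene that FOXO factors also induce, went from 4.12 ± 0.831 to 11.7 ± 1.12 FPKM (adjusted p = 8.7e-12, limma), and Trp53inp1 from 20 ± 6.59 to 43.5 ± 4.72 FPKM (adjusted p = 1.39e-06, limma). Mdm2, which marks p53 for degradation and was named after its values were seen, was at 57.3 ± 8.51 FPKM on day 0, 26.2 ± 1.75 on day 2, and 18.9 ± 1.54 on day 4. The median of the list on the rescaled values went from -0.31 to 0.07 on day 2 and was -0.29 relative to all genes, with 5 called higher and 6 lower.

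Of the 17 tested regulators of the inhibitors, 5 were called higher and 4 lower on day 2, beside 22.2% and 19.9% of all tested genes. On the rescaled values, on which all genes had 5610 higher and 1361 lower, they were 9 and 2. Cbx7, a Polycomb protein that represses Cdkn2a, went from 0.42 ± 0.0951 to 1.22 ± 0.195 FPKM (SD, n = 9), a log2 fold change of 1.35 (adjusted p = 8.56e-10, limma). Id2, an inhibitor of basic helix-loop-helix factors that also binds pocket proteins, went from 23.8 ± 6.88 to 67.5 ± 7.98 FPKM (1.54). Myc, which represses Cdkn1a and Cdkn2b, fell by 1.59 on the log2 scale, from 27 ± 9.69 to 8.54 ± 1.28 FPKM. Tgfb1, the ligand that induces Cdkn2b and is also made by macrophages, was the only gene of the 6 lists called between genotypes, higher in Per1-/- than in the libraries labelled Per2-/- on day 4 (log2 fold change 0.73, standard error 0.145, adjusted p = 0.0191, limma), while Cdkn2b was at 15.9 to 21.4 FPKM in Per1-/- and 19.4 to 21.3 FPKM in the libraries labelled Per2-/- on that day.

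**Figure D5:**
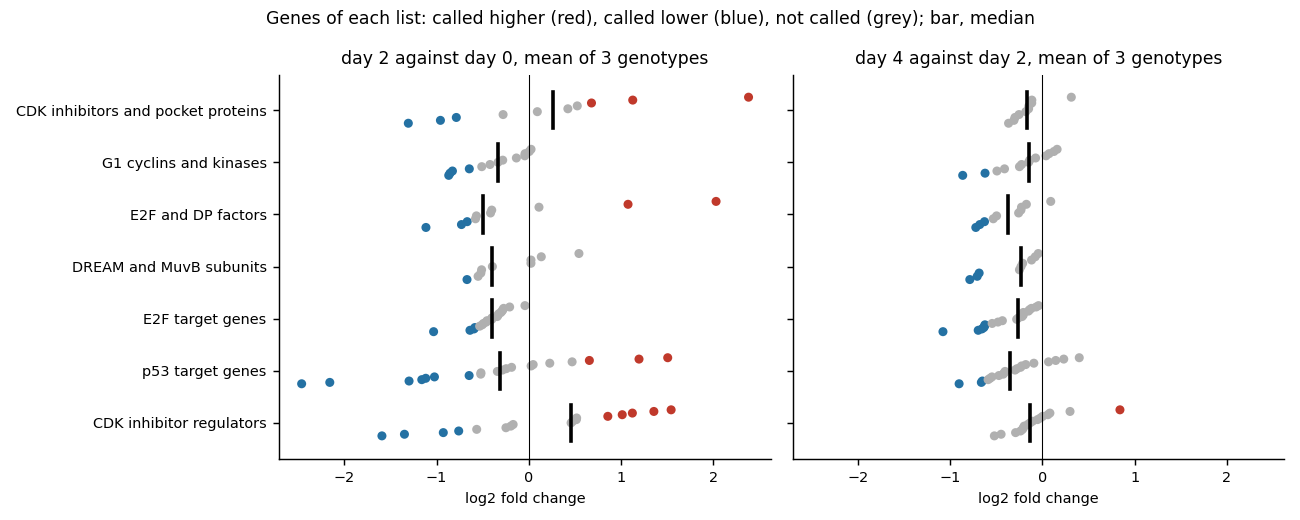
Log2 fold change (horizontal axis) of the members and of the genes of 6 pathway lists, on day 2 against day 0 (left) and on day 4 against day 2 (right), over the mean of the 3 genotypes; each point is a gene, called higher (red), called lower (blue), or not called (grey), and black bars are medians. On day 2 the members spread from -1.31 to 2.38, while the medians of the G1 and E2F target lists lie at -0.34 and -0.40.

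The genes whose pattern over the 27 libraries was most like that of a member were found by the root mean square difference between log2 values centred on each gene's mean. For Cdkn1c they were Igfbp5 (0.28) and Kif21b (0.33), and for Cdkn1a Ero1l (0.15) and Tpst2 (0.18), on the log2 scale. For Cdkn2a they were Ccnd2 (0.22), the cyclin D2 gene, and Pmm1 (0.26), and for Cdkn2b Dap (0.18) and Gss (0.19). Cdkn2c was nearest to H2afv and Ccdc88a, and Cdkn1b to Fut11 and Cdh11. Rbl1 was nearest to Tipin (0.10) and Rfc2 (0.10), which both serve DNA replication, Rbl2 to Atp7a (0.09) and Pskh1 (0.09), and Rb1 to Scamp1 and Wdr26. The differences are smaller for members that varied less, whose own SD over libraries was 0.18 for Cdkn2d and 1.19 for Cdkn1c. None of the genes named here was among the nearest of more than 1 member.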

How the data were processed

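Bulk RNA-seq of 27 libraries was used, 3 for each genotype and day by the sample labels. According to the methods, the authors aligned paired reads to GRCm38 (mm10 in the submitters' notes) with HISAT2 2.0.5, counted them on genes with featureCounts 1.5.0-p3, and deposited FPKM for 54532 genes. Each FPKM value gave a whole number of fragments within 0.01, and the values already held a size factor per library. The study used a count model, and here limma 3.58.1 (R 4.3.3) was run on log2(FPKM + 0.1) of the 14932 genes that averaged 0.5 FPKM or more, with 9 groups, a mean-variance trend, and Benjamini-Hochberg adjustment over all tested genes. Fold changes are on this scale, which understates those of low genes. The fit was tested on simulated data.

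The members and lists were chosen with earlier results of these data known. Named genes are the members, from each list at most 2 called genes in each direction with the largest change on day 2 against day 0, list genes called between genotypes, the 2 nearest genes of each member, genes that overlap a member, and the targeted genes, with exceptions stated. The labels call the replicates biological and do not say whether they came from separate cultures or embryo pools, so p-values measure only the spread between these libraries. Alternatives were other pseudocounts, filters, scalings, voom weights, replicate blocks, and 1 library left out. All 3 pairs of same-numbered libraries deviated together in 3 of 9 comparisons of days within a genotype, by the data and not the labels. Columns that were not sample values were gene annotation. Some values of the transduced factors and of a nearest gene are not reported here.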

Additional observations from a re-analysis of the deposited data

How the results depend on the processing

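The log2 fold changes of the members were recomputed 1153 times under 12 other settings, of which 1086 kept their direction and side of the threshold, 21 were no longer called, 38 became called, and 8 reversed. With 1 library left out at a time (27 libraries), 926 of 948 kept both, 13 were no longer called, 9 became called, and 0 reversed. All 8 reversals came from the 2 rescalings to a common FPKM sum, as deposited and without Gm23935, a short gene that held 3.82% to 25% of a library's sum (a setting chosen after seeing the data). They were Rbl1 on day 2 against day 0 over the mean of genotypes (0.10 in both) and in Per1-/- (0.038 and 0.039), Rbl1 on day 4 against day 0 in WT (0.044 and 0.046), and Cdkn2d on day 4 against day 0 over the mean (0.14 and 0.20). Rescaling moves the median of all genes, which accounts for the shift, and the cause of the unequal sums was not tested. Without a minimum fold change, 5 members were called between days 2 and 4 in place of 0. At the looser unadjusted p under 0.05 there were 6 members and 40.4% of all tested genes. With pseudocount 1, calls of Rbl2 in single genotypes were lost (0.57 in WT and 0.52 in those labelled Per2-/- on day 2), and with only the libraries compared, Cdkn2a in Per1-/- was no longer called (adjusted p = 0.0914 on day 2 and 0.0588 on day 4 in limma). Cdkn1b was called on day 2 over the mean of genotypes without Per1-/- day 0 replicate 1 (0.60). The count of members called on day 2 was 6 to 7 over the mean and 5 to 6 in Per1-/- with 1 library left out.

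Same-numbered libraries of other genotypes on a day had correlations of -0.26 to 0.19 between their deviations from group means (3 of 27 pairs over 0.1), and those of a genotype on other days -0.02 to 0.29 (14 of 27). All 3 pairs were over 0.1 in 3 of the 9 comparisons of days within a genotype (Per1-/- days 0 and 2, Per1-/- days 2 and 4, and WT days 2 and 4). The other 6, and the comparisons between genotypes, did not meet this rule. Some of their pairs were still over 0.1, such as 0.146 for replicate 1 of Per1-/- on days 0 and 4 and 0.282 for replicate 2 of the libraries labelled Per2-/- on days 2 and 4. A link between same-numbered libraries was therefore not excluded there. With a replicate block, 6 members were called on day 2, 0 between days 2 and 4, and 6 on day 4 against day 0, as without it, and the same counts were found with a block for genotype and replicate.

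With 3 libraries per group the precision between genotypes was limited, as the 95% interval of -0.44 to 0.73 for Cdkn1c between Per1-/- and WT on day 2 shows. Each member had at least 221 fragments in every library. The errors given rest on a spread estimated jointly over all 27 libraries in 9 groups, and not on the compared groups alone.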
